A study of Homo sapiens with 6 samples.

Results

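The 10 genes described here carry sulfur from methionine to cysteine and make, break down, recycle or use glutathione. They are CBS and CTH of transsulfuration, GCLC, GCLM and GSS of glutathione synthesis, CHAC1, CHAC2 and GGCT of glutathione breakdown, GSR of glutathione recycling, and GPX4, which spends glutathione on lipid peroxides. They were chosen by gene symbol, with earlier results of these data known, and make up 10 of the 25445 rows of the count table. All 10 had enough counts to be tested, among 15957 rows tested in all.

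RNA was sequenced in 6 libraries of MHCC-97H, a long-established line of human liver cancer cells. In 3 libraries the cells had been given 10 μM of compound 6j, which derives from the plant alkaloid sophoridine, for 16 h, and in the other 3, the controls, whose treatment label reads none, solvent alone for the same time. All cells grew in the same serum-supplemented medium with antibiotics, and the design covers 1 line, 1 dose and 1 time. The labels number the replicates 1 to 3 in each group and do not say whether these were separate cultures, so p-values measure only the spread between these libraries, which may be technical.

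Glutathione is the most abundant small thiol of cells and a tripeptide of glutamate, cysteine and glycine. Cysteine comes from cystine taken up outside the cell or from methionine through transsulfuration, and its supply often limits the first, rate-limiting step of synthesis. Liver cells are known for an active transsulfuration pathway, and loss of glutathione or of GPX4 is known to open cells to ferroptosis, an iron-dependent death by lipid peroxidation. The study sequenced RNA to look for the mechanism behind ferroptosis under 6j, and the comparison below asks which steps of this pathway differed at the RNA level.

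The libraries held 31533403 to 38018349 counts. Most markers of hepatocytes and liver tumours were near 0, since 11 of 14 stayed under 1 CPM (counts relative to the normalized library size) in every library. GPC3 and TTR had no count, ALB was at 0 in 5 of the 6 libraries and AFP in 4, while the epithelial keratins KRT8 (369 to 653 CPM) and KRT18 (320 to 456 CPM) were abundant. Of 10 markers of other cell types, 6 stayed under 1 CPM, and the leukocyte genes PTPRC and CD3E had no count. COL1A1 (203 to 275 CPM), COL3A1 (25.9 to 47.8 CPM), KRT7 (392 to 545 CPM) and CD68 (39.8 to 70.5 CPM) were present. The summed levels of the first list were 905 to 1110 CPM in controls and 706 to 825 CPM with 6j, and those of the second 742 to 895 CPM and 688 to 762 CPM. Their part in the results was not tested, and in bulk RNA fewer cells that express a gene and less of its RNA per cell cannot be told apart.

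CBS and CHAC1 rose in 6j treated cells, by 2.42-fold and 5.57-fold, and edgeR without a block called none of the 10 lower. A gene was called changed when its p-value from edgeR's quasi-likelihood test, adjusted by the Benjamini-Hochberg method over all rows tested, was under 0.05 and its change was larger than 1.5-fold. By this rule 2 of the 10 genes were called, both higher, where 3.60% of all rows tested were called, 2.48% higher and 1.12% lower. GCLC passed the adjusted p alone, which makes 3 of 10 against 9.16% of all rows. The 3 libraries of each group did not overlap for 5 of the 10 (CBS, CHAC1, CHAC2, GCLC and GSS), against 31.7% of all rows. The log2 ratio of 6j over control (the log2 fold change) was above 0 for 7 genes and below 0 for 3, with a median of 0.12, where the median of all rows tested was 0.0046.

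Libraries with the same replicate number deviated together, so each gene was also fitted in edgeR with a term for the number, called the replicate block here. With the block, 4 of the 10 were called, CBS, CTH and CHAC1 higher and CHAC2 lower, against 6.47% of all rows. The adjusted p was under 0.05 for 7 of the 10 with the block, against 26.9% of all rows, and GSR, GPX4 and GGCT were the 3 that missed it. DESeq2, fitted without a block, called the same 4 genes, against 5.80% of the 13784 rows to which it gave an adjusted p.

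**Figure D1:**
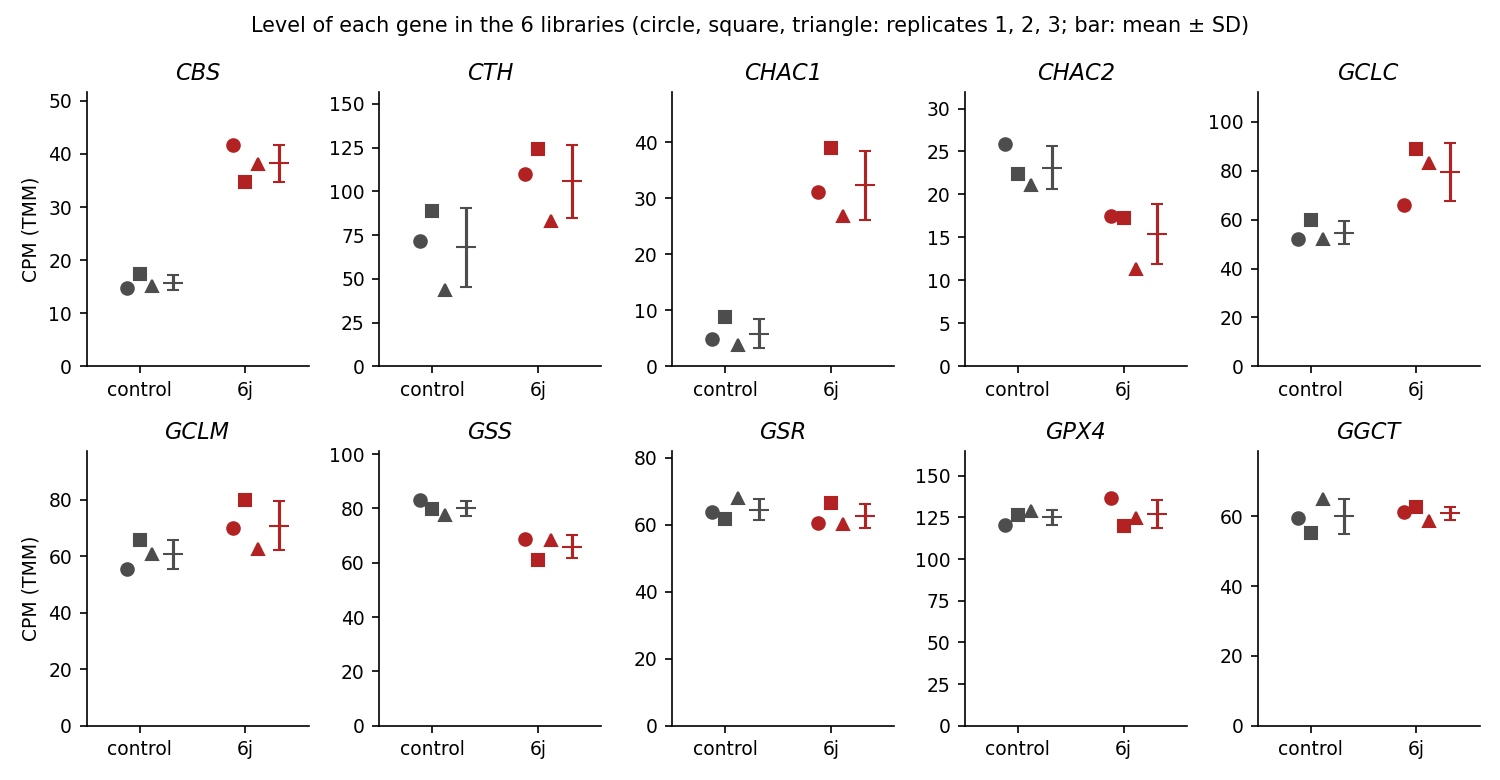
Level of each gene in CPM (TMM normalized, linear axis from 0) in the 3 control and 3 6j treated libraries, with circles, squares and triangles for replicates 1, 2 and 3 and bars for the mean ± SD. As a ratio of the means the groups lie farthest apart for CHAC1 (5.81 against 32.3 CPM) and CBS (15.8 against 38.2 CPM). Those of CTH, GCLM, GSR, GPX4 and GGCT overlap.

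**Figure D2:**
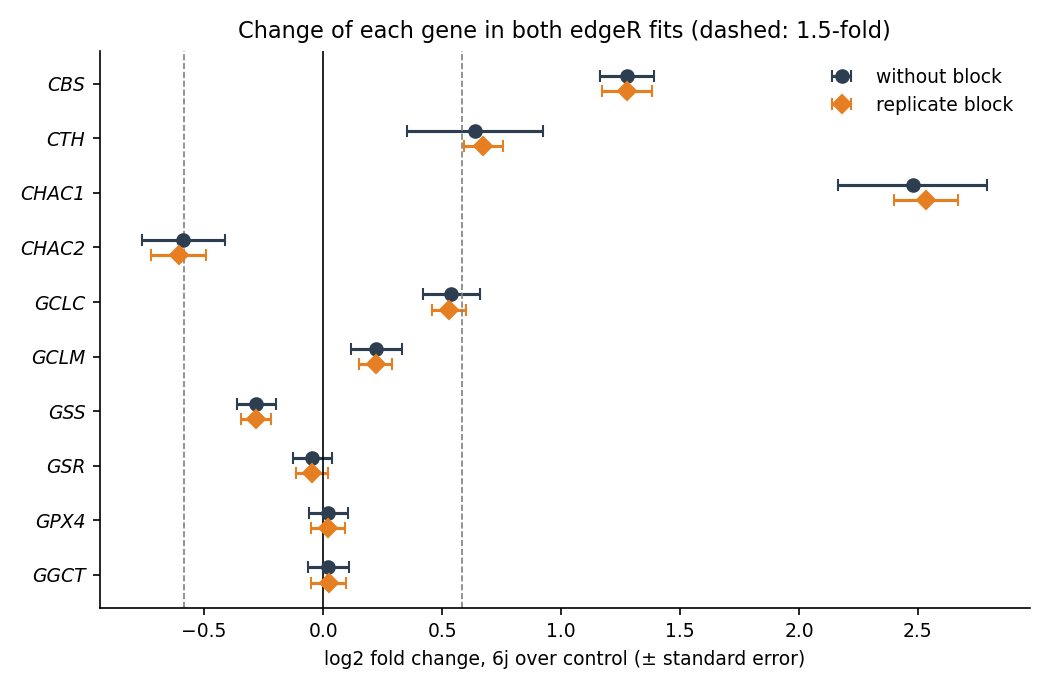
Log2 fold change of each gene, 6j over control, with its standard error, from edgeR without a block (circles) and with the replicate block (diamonds), and dashed lines at 1.5-fold. The estimates barely move between the fits, and the standard error of CTH shrinks from 0.28 to 0.08.

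CBS encodes cystathionine β-synthase, which joins homocysteine and serine in the first step of transsulfuration. It lies on chromosome 21 from 43053191 to 43076943 on the minus strand (GRCh38, here and for all genes, with GENCODE 29 annotation). Its level was 14.8, 17.4 and 15.1 CPM in controls 1, 2 and 3 and 41.7, 34.8 and 38.2 CPM in 6j libraries 1, 2 and 3. Every treated library lay above every control, by 1.49, 1.00 and 1.33 on the log2 scale over the control with the same number. The mean rose from 15.8 ± 1.41 to 38.2 ± 3.46 CPM (SD, n = 3 each), which gave a log2 ratio of 1.28 (SE, the standard error, 0.11, edgeR adjusted p = 0.00103), and CBS ranked 17 by p-value among all rows. It was called in each of the 6 fits that left out 1 library and with the block (edgeR adjusted p = 1.62e-05).

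CBS has a near-identical copy, CBSL, on the same chromosome from 6444869 to 6468040, and the counting could split reads between them. The transcripts CBS-203 and CBSL-206, each of 2453 bases, differ at 1 base. CBSL was counted at 383, 326 and 266 in controls and 580, 948 and 356 with 6j, and CBS at 557, 548 and 527 and at 1602, 1315 and 1311. CBSL thus held 33.5% to 41.9% of the sum in the controls and in 6j replicate 2, and 26.6% and 21.4% in 6j replicates 1 and 3. The split differed most among the treated libraries, and the CBSL row alone was not called (log2 ratio 0.85, edgeR adjusted p = 0.136, and called with the block at 0.77, edgeR adjusted p = 0.00724).

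Counted as 1 gene, CBS and CBSL together were at 24.9, 27.7 and 22.8 CPM in controls and 56.8, 59.9 and 48.5 CPM with 6j, with no overlap. The sum rose from 25.1 ± 2.48 to 55.1 ± 5.86 CPM (SD, n = 3 each), which gave a log2 ratio of 1.13 (SE 0.11, edgeR adjusted p = 0.00179). This sum does not change with how reads were divided between the copies.

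**Figure D3:**
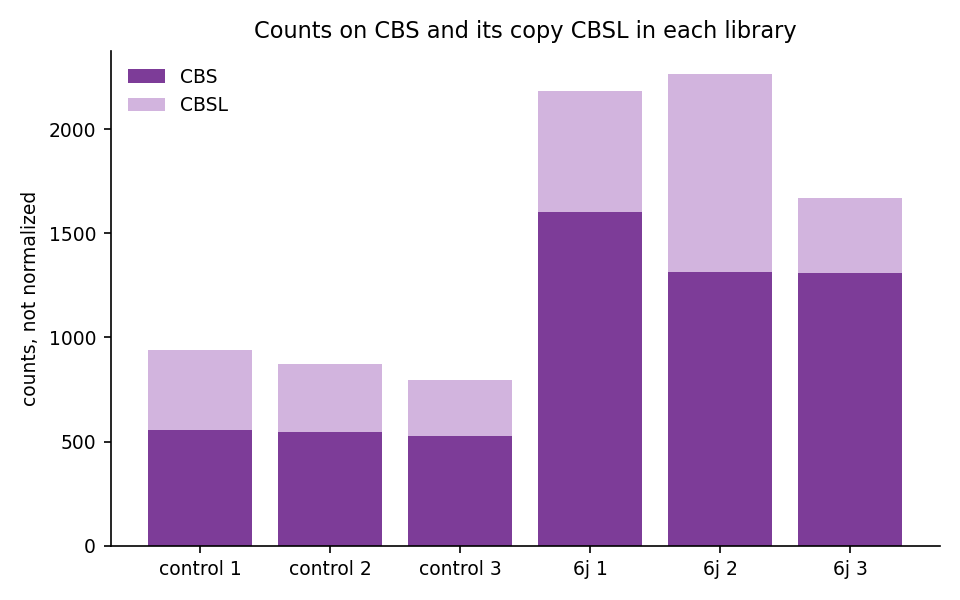
Counts, not normalized, on CBS (dark) and on CBSL (light) stacked for each of the 6 libraries. The stacked total is 793 to 940 in controls and 1667 to 2263 with 6j, and the light part is largest in 6j replicate 2.

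CTH encodes cystathionine γ-lyase, which cleaves cystathionine to release cysteine. CTH is on chromosome 1 from 70411218 to 70439851. The controls were at 71.6, 88.6 and 43.8 CPM and the 6j libraries at 110, 124 and 83.2 CPM. The groups overlapped, because control replicate 2 lay above 6j replicate 3, yet in each number the treated library was the higher, by 0.62, 0.49 and 0.92 on the log2 scale. The means were 68.0 ± 22.6 and 106 ± 20.8 CPM (SD, n = 3 each), which gave a log2 ratio of 0.64 with a 95% interval of −0.06 to 1.34 (edgeR adjusted p = 0.227). Without control replicate 3 the log2 ratio was 0.40, and 0.87 without control replicate 2. CTH was called with the replicate block (0.67, SE 0.08, edgeR adjusted p = 0.000282) and by DESeq2 without it (0.64, adjusted p = 0.0285). With the block and both replicate 3 libraries left out its log2 ratio was 0.55 (edgeR adjusted p = 0.00176), under the fold threshold.

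The change of CBS was compared with that of CTH as the difference of their log2 CPM within each library. It was −2.05 ± 0.45 in controls and −1.45 ± 0.36 with 6j (SD, n = 3 each), a change of 0.60 toward CBS. The two-sided exact permutation test gave p = 0.2, or 0.2 adjusted over the 3 gene pairs compared, and 3 libraries against 3 allow no p below 0.1. Within numbers 1, 2 and 3 the difference went from −2.27 to −1.40, from −2.35 to −1.83 and from −1.53 to −1.12. Paired by number, the exact permutation test gave 0.25 for each of the 3 gene pairs, the smallest p that 3 numbers allow. These levels are not per length, so only the change can be read.

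GCLC encodes the catalytic subunit of glutamate-cysteine ligase, the rate-limiting enzyme of glutathione synthesis. It lies on chromosome 6 from 53497341 to 53616970 on the minus strand and shares 529 exon bases with the non-coding gene AL033397.1. GCLC was at 51.9, 60.0 and 52.2 CPM in controls and 66.1, 89.0 and 83.3 CPM with 6j. Every treated library lay above every control, by the smallest margin in 6j replicate 1. The means were 54.7 ± 4.56 and 79.4 ± 12 CPM (SD, n = 3 each), which gave a log2 ratio of 0.54 (SE 0.12, edgeR adjusted p = 0.0267) or 1.45-fold, just under the threshold for a call. GCLC was called without control replicate 2 (0.61, edgeR adjusted p = 0.0447) and without 6j replicate 1 (0.66, edgeR adjusted p = 0.0106). In the other 4 fits that left out 1 library the adjusted p was not under 0.05, at 0.123 without control replicate 1, 0.0844 without control replicate 3, 0.12 without 6j replicate 2 and 0.0585 without 6j replicate 3 in edgeR.

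GCLM encodes the modifier subunit, which raises the ligase's affinity for glutamate and eases its feedback inhibition. The gene spans chromosome 1 from 93885205 to 93909456. Its controls were at 55.4, 65.8 and 60.7 CPM and its 6j libraries at 70.0, 79.8 and 62.6 CPM. The groups overlapped through 6j replicate 3, which exceeded its own control by 0.04 on the log2 scale. The log2 ratio was 0.22 with a 95% interval of −0.02 to 0.47 (edgeR adjusted p = 0.228), and with the block 0.22 (edgeR adjusted p = 0.0354), far under the fold threshold.

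Within libraries, log2 CPM of GCLC minus that of GCLM was −0.15 ± 0.06 in controls and 0.16 ± 0.25 with 6j (SD, n = 3 each). The change of 0.31 was toward the catalytic subunit, and the treated libraries lay above the controls, 6j replicate 1 by the least (−0.08 against −0.09 in the highest control). The change was 0.19 without 6j replicate 3. The two-sided exact permutation test gave its smallest possible p, 0.1, or 0.15 adjusted over the 3 pairs.

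GSS encodes glutathione synthetase, which adds glycine in the last step. Its position is chromosome 20 from 34928433 to 34956027. The controls were at 83.1, 79.6 and 77.6 CPM and the 6j libraries at 68.7, 61.0 and 68.2 CPM, so that every treated library lay below every control. The means were 80.1 ± 2.79 and 66.0 ± 4.29 CPM (SD, n = 3 each), which gave a log2 ratio of −0.28 (SE 0.08, edgeR adjusted p = 0.0619). With the block the adjusted p was 0.00657 in edgeR at the same size of change. The synthesis genes thus had estimates on both sides of 0, GCLC and GCLM above and GSS below, and none was called.

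CHAC1 encodes a γ-glutamylcyclotransferase that cleaves intact glutathione into 5-oxoproline and cysteinylglycine, and it is a known target of the stress-induced factors ATF4 and CHOP. It lies on chromosome 15 from 40952962 to 40956519 on the plus strand. CHAC1 was at 4.88, 8.72 and 3.82 CPM in controls and 31.0, 39.0 and 26.8 CPM with 6j, from 133 to 275 counts and from 922 to 1474 counts. The lowest treated library was over 3 times the highest control, and within both groups replicate 2 was highest and replicate 3 lowest. The mean rose from 5.81 ± 2.58 to 32.3 ± 6.17 CPM (SD, n = 3 each), which gave a log2 ratio of 2.48 (SE 0.31, edgeR adjusted p = 0.00882). Its change was the largest of the 10, and it ranked 165 by p-value. Without control replicate 1 CHAC1 was not called (2.37, edgeR adjusted p = 0.058), and with the block its edgeR adjusted p was 9.29e-07. Nor was CHAC1 called by edgeR's formal test of a change above 1.5-fold (glmTreat adjusted p = 0.0561). The study picked CHAC1 for RT-qPCR from these same libraries, so its rise here is not independent of that choice. By that RT-qPCR the study reports CHAC1, like the other genes it picked, as higher in treated cells.

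The 250 bases before the start sites of the genes were searched on both strands for 3 motifs, because stress factors are known to act on such elements. RefSeq windows (GRCh38.p14) were searched for 7 of the 10 genes, 12 windows in all. The motifs were the core of the C/EBP-ATF element, TGATGNAA, the core of the antioxidant response element, TGACNNNGC, and the cyclic AMP response octamer, TGACGTCA. They occurred in 3.14%, 10.9% and 1.65% of 35116 such windows of the genome. The first was found in CHAC1 alone, the second in CBS and GCLM, and the octamer in 0 of the 7. These are counts of genes, some with more than 1 window, whereas the shares are of windows. Of the 12 windows, each of these 3 genes had a match in 1. The matches are shown in the direction of each gene with 10 bases on either side and the match in capitals, and in all of them the motif reads on the opposite strand.
CHAC1: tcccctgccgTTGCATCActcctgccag
GCLM: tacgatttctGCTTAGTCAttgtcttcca
CBS: ccggctctggGCGCGGTCAcgcggggcgc
The CHAC1 match, at chr15:40953262-40953269 on the plus strand, lies at positions −209 to −202 from the RefSeq start, inside the transcribed part of a longer GENCODE transcript. The matches of GCLM (chr1:93909456-93909464, minus strand, −34 to −26) and CBS (chr21:43076452-43076460, minus strand, −83 to −75) lie nearer to theirs. Such matches describe letters and do not show that a factor binds.

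CHAC2 encodes the sister enzyme, which cleaves glutathione more slowly and is regarded as the housekeeping form. It lies on chromosome 2 from 53767792 to 53775196. CHAC2 was at 25.9, 22.4 and 21.1 CPM in controls and 17.5, 17.3 and 11.4 CPM with 6j, so that every treated library lay below every control, 6j replicate 3 the farthest. The means were 23.1 ± 2.47 and 15.4 ± 3.46 CPM (SD, n = 3 each), which gave a log2 ratio of −0.59 with a 95% interval of −0.98 to −0.20 (edgeR adjusted p = 0.0665). CHAC2 was called lower with the block (−0.61, SE 0.12, edgeR adjusted p = 0.00265) and by DESeq2 without it (−0.59, adjusted p = 0.0143). With the block and both replicate 3 libraries left out its log2 ratio was −0.47 (edgeR adjusted p = 0.0277), short of 1.5-fold.

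The difference between these sister genes changed the most of the 3 pairs compared. Log2 CPM of CHAC1 minus that of CHAC2 was −2.06 ± 0.62 in controls and 1.08 ± 0.22 with 6j (SD, n = 3 each), a change of 3.14. The two-sided exact permutation test again gave its smallest possible p, 0.1, or 0.15 adjusted over the 3 pairs. Per kilobase of exon, CHAC1 was at 0.121, 0.25 and 0.116 times the level of CHAC2 in the controls and at 1.14, 1.45 and 1.51 times in the 6j libraries. In every control CHAC2 was thus the more abundant transcript per length, and in every treated library CHAC1 was.

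GGCT encodes the cyclotransferase that acts on γ-glutamyl amino acids rather than on glutathione itself. The gene is on chromosome 7 from 30496621 to 30504844 and shares 441 exon bases with the protein-coding gene AC005154.5, so its counts are less certain. It was at 59.6, 55.2 and 65.0 CPM in controls and 61.2, 62.5 and 58.7 CPM with 6j. The treated libraries lay within the range of the controls, and no difference was detected (log2 ratio 0.02, 95% interval −0.17 to 0.22, edgeR adjusted p = 0.912).

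GSR encodes glutathione reductase, which returns oxidized glutathione to its reduced form with NADPH. It spans chromosome 8 from 30678061 to 30727999. The controls were at 63.8, 61.8 and 67.8 CPM and the 6j libraries at 60.6, 66.6 and 60.3 CPM. The groups overlapped, with treated libraries below their own controls in replicates 1 and 3 and above in replicate 2, and the log2 ratio was −0.04 (95% interval −0.23 to 0.14, edgeR adjusted p = 0.778).

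GPX4 encodes the selenoenzyme that reduces lipid hydroperoxides in membranes at the cost of glutathione. The gene spans chromosome 19 from 1103926 to 1106791. It was at 120, 127 and 129 CPM in controls and 136, 120 and 125 CPM with 6j. The groups overlapped and the log2 ratio was 0.02, with a 95% interval of −0.16 to 0.20 (edgeR adjusted p = 0.902). For GGCT, GSR and GPX4 the intervals leave out a 1.5-fold change of RNA in either direction, and they say nothing of enzyme activity.

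**Figure D4:**
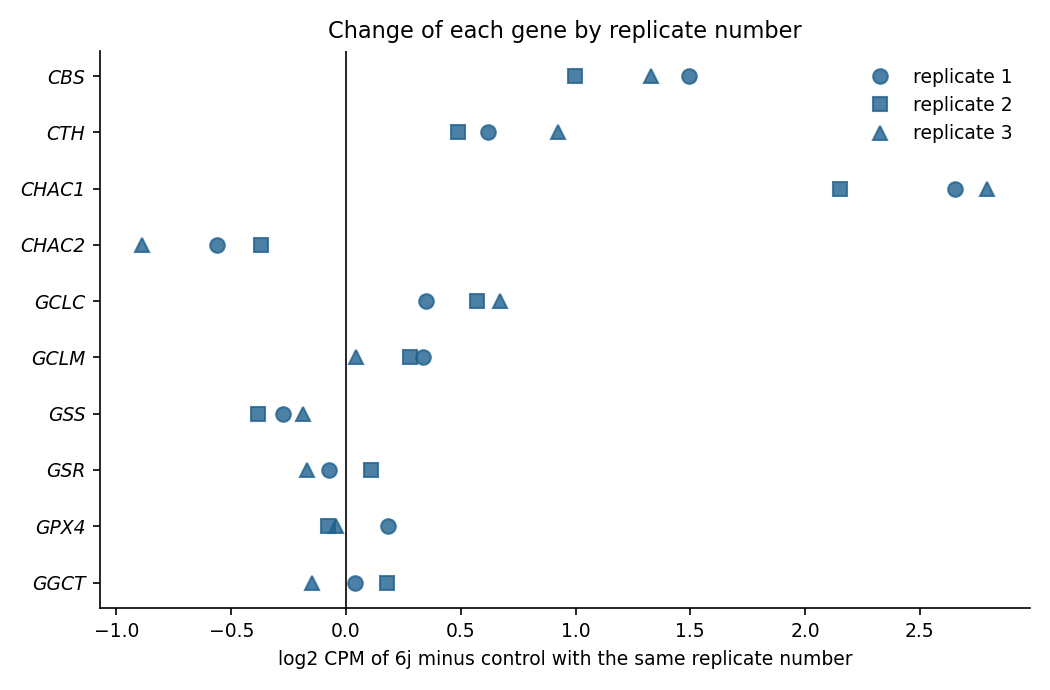
Log2 CPM of each 6j library minus that of the control with the same replicate number, for each gene, with circles, squares and triangles for replicates 1, 2 and 3. All 3 changes lie above 0 for CBS, CTH, CHAC1, GCLC and GCLM and below 0 for CHAC2 and GSS, while GSR, GPX4 and GGCT have changes on both sides.

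The order of levels per kilobase of exon, which allows genes to be compared, differed between the groups. In controls GPX4 was highest at 62.0 CPM per kilobase, followed by GGCT (37.5), CTH (28.2), CHAC2 (17.5), GSR (17.1), GSS (13.0), GCLM (11.2) and GCLC (6.33), with CHAC1 (2.82) and CBS (2.32) lowest. Neighbours whose libraries overlapped were GGCT and CTH, CTH and CHAC2, CHAC2 and GSR, and CHAC1 and CBS. With 6j, GPX4 was again highest (63.0) and CBS lowest (5.63), while CHAC1 stood in place 5 at 15.7, between GSR (16.6) and GCLM (13.1), and overlapped with both. CHAC1 and CBS, the genes that rose, were thus the least abundant of the 10 per length in controls. The CBS level leaves out the counts on its copy CBSL, so the order of CBS and CHAC1 in controls is uncertain. The exon length counts all annotated isoforms, so a gene with long rare isoforms is placed too low.

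The genes whose log2 CPM followed CBS most closely over the 6 libraries were ARID3B (Pearson's r = 0.999), NBPF11 (0.997) and ZNF888 (0.997). For CHAC1 they were LSS (0.998), SLC38A6 (0.997) and CARS (0.996). These are descriptions over 6 libraries that form 2 groups, among 12210 genes compared, and r reached 0.95 for 166 genes with CBS and for 360 with CHAC1.

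The rest of cysteine and glutathione metabolism was described by lists. Of 76 further genes in 8 lists, 75 were in the table and 56 were tested, and 1 was called, SLC7A11, against 3.60% of all rows. The adjusted p was under 0.05 for 7 of the 56, 3 higher and 4 lower, and 22 of the 56 had groups that did not overlap, against 9.16% and 31.7% of all rows. The log2 ratio was above 0 for 23 and below 0 for 33, with a median of −0.06. With the replicate block 5 were called against 6.47% of all rows, SLC7A11 and GGT7 higher and SQOR, LAP3 and GSTM2 lower.

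SLC7A11, the cystine carrier of system xc-, was at 148, 180 and 177 CPM in controls and 255, 350 and 339 CPM with 6j. All treated libraries lay above all controls, and the mean rose from 169 ± 17.6 to 315 ± 51.7 CPM (SD, n = 3 each), which gave a log2 ratio of 0.90 (SE 0.13, edgeR adjusted p = 0.0085), called in each of the 6 fits that left out 1 library. SLC3A2, the other tested gene of this list and the chain that carries SLC7A11 to the membrane, had a log2 ratio of 0.46 (edgeR adjusted p = 0.0943). Its groups overlapped. With the block it had 0.47 (edgeR adjusted p = 0.000342) and by DESeq2 without it 0.46 (adjusted p = 0.0176), both under the fold threshold. It was called by edgeR without control replicate 2.

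In the methionine cycle, which feeds homocysteine to CBS, 0 of 8 tested genes were called and the median log2 ratio was 0.02. AHCYL1, a relative of adenosylhomocysteinase that binds the IP3 receptor, had a log2 ratio of 0.33 (edgeR adjusted p = 0.0377). AHCY, adenosylhomocysteinase itself, had one of −0.37 (adjusted p = 0.125, and 0.0011 with the block, in edgeR). Of 7 genes of cysteine breakdown and sulfide oxidation 0 were called, 6 were below 0 and the median was −0.13. SQOR, the mitochondrial sulfide oxidase, had means of 32.8 ± 7.92 and 20.7 ± 4.53 CPM (SD, n = 3 each) and was called lower with the block (−0.65, edgeR adjusted p = 0.000734, against 0.0975 without). DESeq2 without a block called it as well (−0.66, adjusted p = 0.0148), and so did edgeR without control replicate 3 (−0.85, adjusted p = 0.0422). The groups of SQOR overlapped, with control replicate 3 at 23.7 CPM and 6j replicate 1 at 25.4 CPM. Its call with the block was lost with number 2 left out (−0.53, under the fold threshold). TST, a sulfurtransferase, had a log2 ratio of −0.30 (edgeR adjusted p = 0.211).

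Of the 7 tested genes that hydrolyse glutathione or its fragments, 0 were called, with a median of 0.22. OPLAH, which opens the 5-oxoproline that CHAC1 releases, was at 16.4 ± 1.40 and 21.4 ± 2.08 CPM (SD, n = 3 each), which gave a log2 ratio of 0.38 (edgeR adjusted p = 0.0826). GGT7, of the γ-glutamyltransferase family, was low, at 1.48 ± 0.73 and 3.0 ± 0.81 CPM (SD, n = 3 each), and was called with the block (1.10, edgeR adjusted p = 0.0128, against 0.156 without). That call was lost with number 2 left out (edgeR adjusted p = 0.0893) or number 3 left out (edgeR adjusted p = 0.0655). LAP3, an aminopeptidase named after its values were seen, had −0.66 (edgeR adjusted p = 0.30). It was called lower with the block (−0.63, edgeR adjusted p = 0.00043), but not with number 2 left out as well. Of the other glutathione peroxidases tested, GPX8 of the endoplasmic reticulum had 0.43 (edgeR adjusted p = 0.085) and cytosolic GPX1 0.04 (edgeR adjusted p = 0.909).

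The glutathione S-transferases, which attach glutathione to other molecules, lay mostly below 0. Of 15 tested, 12 had a log2 ratio below 0 and 3 above, where 7871 of the 15957 rows were below 0, the median was −0.35, and 10 had groups that did not overlap, against 31.7% of all rows. None was called by both thresholds with all 6 libraries and no block. The adjusted p was under 0.05 for 4, all lower, against 4.37% of all rows that were lower by that rule. GSTM1 was called without control replicate 3 (−0.62, edgeR adjusted p = 0.0284) and without 6j replicate 3 (−0.59, edgeR adjusted p = 0.0211). GSTM4, named after its values were seen, was called without 6j replicate 1. GSTM1 was at 35.2 ± 2.49 and 23.8 ± 1.10 CPM (SD, n = 3 each), which gave a log2 ratio of −0.56 (edgeR adjusted p = 0.0121), and GSTO1 at 66.6 ± 3.63 and 49.3 ± 3.22 CPM (SD, n = 3 each), one of −0.43 (edgeR adjusted p = 0.019). The other 2 were GSTP1 (−0.37, edgeR adjusted p = 0.0197) and MGST2 (−0.51, edgeR adjusted p = 0.0317), named after their values were seen. GSTM2, named likewise, was called lower with the block (−0.84, edgeR adjusted p = 0.0385, against 0.126 without). This call was lost with number 1 left out and with number 2 left out. Reads of the GSTM genes, which are close in sequence, could have been divided between them. The 12 below 0 also include GSTT2 (−0.58) and GSTT2B (−0.26), whose reads could likewise have been divided.

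Among glutaredoxins and glyoxalases 0 of 8 were called (median −0.02). GLRX2, the mitochondrial glutaredoxin, had a log2 ratio of 0.36 (edgeR adjusted p = 0.0469) and ESD, which ends the glutathione-dependent removal of formaldehyde, one of −0.20 (edgeR adjusted p = 0.2). Among 7 transporters 0 were called (median −0.06). SLC25A39, the mitochondrial glutathione importer, had −0.25 (edgeR adjusted p = 0.0809) and its relative SLC25A40 0.33 (edgeR adjusted p = 0.127).

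**Figure D5:**
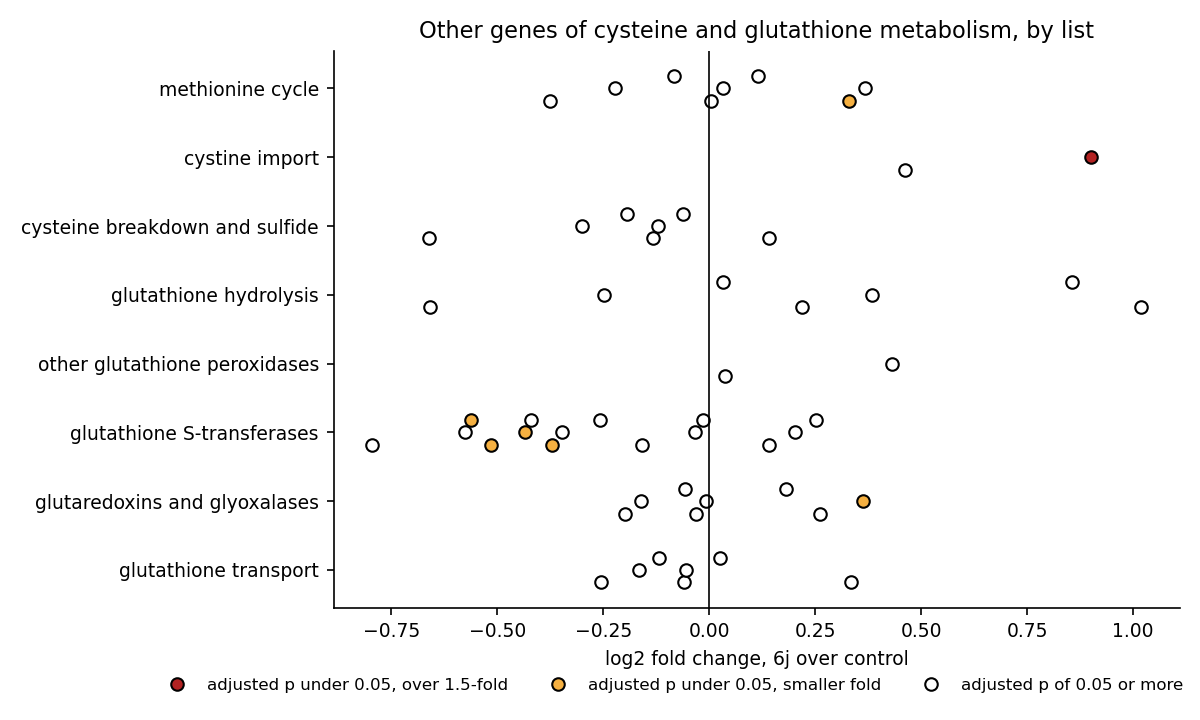
Log2 fold change, 6j over control, of the 56 other tested genes of cysteine and glutathione metabolism, 1 circle per gene in rows by list, filled by whether the gene passed the thresholds. SLC7A11 at 0.90 is the 1 called gene, and the 4 coloured S-transferases lie between −0.56 and −0.37.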

How the data were processed

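Poly(A) RNA was sequenced from 6 libraries. The table deposited by the authors gives whole-number counts for each gene and library, without normalization. The submitters' processing notes name HISAT2, StringTie and GRCh38, without versions or roles, and the annotation and the use of strand are not given in the sources used here. Each library had fewer rows at 1 (142 to 175) than at 2 (557 to 692), and no source says whether the counts are whole reads or rounded estimates. All 19974 Ensembl identifiers of the table were found in GENCODE 29, and 5471 rows were new genes of the authors' assembly without coordinates.

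From the counts, edgeR 4.0.16 (limma 3.58.1, R 4.3.3) computed TMM factors after filterByExpr (minimum count 10, total 15) and robust quasi-likelihood fits over 15957 rows without covariates. CPM uses TMM normalized library sizes, and log2 CPM a prior count of 2. Total counts were 31533403 to 38018349 per library, and the standard errors hold both counting error and the spread between libraries. DESeq2 1.42.0 was an alternative, since the study used it, with a fold change of 1.5. The gene pairs were tested in R by exact permutation. Python 3.11.15 was used for annotation, the motif search, the order of levels per kilobase and the figures. The scripts were tested on simulated data.

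The deviations of a control and a 6j library from their group means correlated at 0.171, 0.18 and 0.312 where the numbers matched and at −0.231 to 0.0795 where they differed, so the replicate numbers were treated as pairing the libraries. The pairing comes from these values, since no source says what a number marks. Both replicate 3 libraries stood apart on principal component 2, which held 25.6% of the variance.

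The genes and lists were chosen with earlier results of these data known. Named were the 10 genes, per list every called gene or otherwise the 2 with the smallest adjusted p, and the 3 genes most correlated with each called gene over 6 libraries (mean of at least 1 CPM). A planned comparison of the CHAC1 and CHAC2 proteins was not made, and of the promoters only the bases around a match are printed, including that of GCLM, chosen after its match was seen. No window was searched for GSR, GSS and GGCT. Chromosome 8, where GSR lies, was left out of the search of the 10 genes but not of the shares over all windows. The alternatives were other normalizations, filters, thresholds and tools, the replicate block and leaving out libraries.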

Additional observations from a re-analysis of the deposited data

How the results depend on the processing

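The number of the 10 genes called was 2, and became 4 with DESeq2 and with the replicate block. It was 1, CBS, with edgeR's formal test of a change above 1.5-fold (glmTreat), and 1 to 3 with each library left out in turn. With the block and number 1, 2 or 3 left out, added after seeing the data, it was 5, 4 and 2, and the calls of CTH and CHAC2 were lost without number 3. The block made CTH and CHAC2 called and changed no other call among the 10. Over all rows the 574 calls became 800 with DESeq2, 1462 by adjusted p alone, 1136 by unadjusted p and fold, 32 with glmTreat, 1033 with the block and 186 to 772 with 1 library left out, with 186 without control replicate 1, 193 without 6j replicate 2 and 379 without control replicate 3. Of the 56 further genes, the 1 call became 2 with DESeq2, 7 by adjusted p alone, 4 by unadjusted p and fold, 0 with glmTreat, 5 with the block, 1 to 3 with 1 library left out, and 3 without both replicate 3 libraries, which was also added later, as was the sum of CBS and CBSL. Log2 fold changes near 0 turned sign. GPX4 ranged from −0.0318 to 0.0629, GGCT from −0.0344 to 0.0835 and GPX1 from −0.0811 to 0.176 with 1 library left out. With the block, GPX4 was −0.0617 and GPX1 −0.00518 without number 1, GGCT −0.0522 without number 2 and GSR 0.0152 without number 3, and GSR was 0.0167 without both replicate 3 libraries and no block. The cause was not tested. The 3 gene pair differences kept their direction in all 9 alternatives each. The depth of 133 to 275 counts in controls is the lowest of the 10 genes for CHAC1, whose SE was 0.31, and 0.14 with the block.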
